A study of Mus musculus with 6 samples.

Results

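The genes described here act in making, trimming or capping the branches of N-linked glycans, the sugar trees attached to asparagines of cell surface proteins. Listed by name, the genes are Mgat1, Mgat2, Mgat4a, Mgat4b, Mgat5, Man2a1, Man2a2 and St6gal1. They are 8 of the 54838 gene identifiers in the count table, found by matching Ensembl identifiers to symbols in GENCODE release M21, and all 8 had enough counts to be tested. Mgat5 was picked for its lower level in the comparison below, and the other 7 because they act in the same pathway, so the difference of Mgat5 is given as a description of the libraries and not as independent evidence.

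RNA was sequenced in 6 libraries of mouse B cells, 3 after Cpd10 (1 µM), which the labels call a FOXO1 inhibitor (FOXO1 is a forkhead transcription factor), and 3 after DMSO, the solvent. In both groups the cells were naive B cells sorted from the spleens of 10 males, aged 3 months, that had been given sheep red blood cells 9 days earlier. Cells of the 2 experiments were pooled before culture. All received interleukin 4 (80 ng/ml) and an antibody to CD40 (5 µg/ml) for 5 days, in a medium made for embryonic stem cells, and Cpd10 or DMSO for the last 48 hours. What the replicate letters A, B and C mark is not in the labels. The p-values below therefore reflect library-to-library spread, possibly technical, and not spread between animals.

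N-glycans arrive in the Golgi as high-mannose trees. MGAT1 adds the first N-acetylglucosamine (GlcNAc), the mannosidases MAN2A1 and MAN2A2 then clear the outer mannoses, MGAT2 starts the next branch, and MGAT4A, MGAT4B and MGAT5 add further branches to the mannose core. The branch made by MGAT5 is the one most readily extended with repeated galactose and GlcNAc units (LacNAc), to which galectins bind, and in mouse T cells loss of Mgat5 is known to lower the threshold of receptor activation. ST6GAL1 caps finished branches with sialic acid in the linkage that CD22, an inhibitory lectin of B cells, recognises.

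Total counts ran from 36873204 to 44859930 per library. Of the counts from 1 to 9, 76.9% were even, so 1 fragment may have given 2 counts, which was not tested. The counts printed below, which also entered the fits, may then exceed the fragments. CPM and ratios would stay as they are only if every fragment gave 2 counts, and some low counts were odd. The treatment was crossed by a split of the libraries into 2 sets: on the leading principal component (46.3% of the variance in log2 CPM), Cpd10 A, DMSO A and DMSO C (set 1) lay apart from Cpd10 B, Cpd10 C and DMSO B (set 2). The labels do not name this split, and it is used below as an added term beside the group. The B cell markers Cd79a, Cd79b, Ms4a1, Pax5, Ebf1, Cd22 and Cd74 were abundant in every library. They summed to 9086 to 11039 CPM in Cpd10 and 10786 to 12670 CPM in DMSO libraries (CPM, the count scaled to a common, normalised library size). Most of that sum was Cd74, at 6330 to 7592 CPM in Cpd10 and 7714 to 9079 CPM in DMSO libraries. EdgeR, used below, called 0 of these 7 genes, with log2 fold changes of Cpd10 against DMSO from -0.65 (Ms4a1) to 0.19 (Cd79b).

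Mgat5 (chromosome 1, 127205015 to 127488336, GRCm38, identifier ENSMUSG00000036155) had 25.2, 22.8 and 21.6 CPM in Cpd10 replicates A, B and C, against 42.5, 40.5 and 46.4 CPM in DMSO replicates A, B and C. Every Cpd10 library lay below every DMSO library, and the highest Cpd10 value was well under the lowest DMSO value. Mgat5 averaged 23.2 ± 1.83 CPM in Cpd10 and 43.1 ± 3.03 CPM in DMSO (mean ± SD, n = 3 each), a log2 fold change of -0.89 (SE 0.12, 95% interval -1.16 to -0.63), which is 53.8% of the DMSO level. In edgeR's quasi-likelihood fit across all genes its adjusted p was 0.0295, from the same comparison in which it was chosen, and with the set as a term the log2 fold change was -0.84 (edgeR adjusted p = 0.000501). Within set 1 the difference was -0.82 on the log2 scale and within set 2 it was -0.87, so it was of like size in both sets, each of which has a single library on 1 side. The call did not hold with the replicate letter as a block (log2 fold change -0.89, edgeR adjusted p = 0.0622), nor without DMSO A, DMSO C, Cpd10 B or Cpd10 C (edgeR adjusted p = 0.175, 0.132, 0.170 and 0.221), while the log2 fold change stayed between -0.95 and -0.83 over the 6 fits that leave out 1 library.

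Sequence before the start of Mgat5 is shown because it holds a match to GTAAATA, 1 of 2 forkhead motifs searched, beside that of Mgat2, an enzyme of the same pathway whose level did not pass the test. Both windows run from 250 bases before to 50 bases after the RefSeq start, on GRCm38.p6 and the plus strand: chr1:127204736-127205035 for Mgat5 and chr12:69183908-69184207 for Mgat2. Capitals mark a match to GTAAATA, read here on the opposite strand as TATTTAC.
Mgat5: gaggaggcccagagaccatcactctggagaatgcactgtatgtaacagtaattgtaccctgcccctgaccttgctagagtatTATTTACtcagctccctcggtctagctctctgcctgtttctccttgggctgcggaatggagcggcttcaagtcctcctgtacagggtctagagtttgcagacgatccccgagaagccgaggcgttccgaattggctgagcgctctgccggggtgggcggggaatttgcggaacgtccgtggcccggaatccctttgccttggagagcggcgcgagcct
Mgat2: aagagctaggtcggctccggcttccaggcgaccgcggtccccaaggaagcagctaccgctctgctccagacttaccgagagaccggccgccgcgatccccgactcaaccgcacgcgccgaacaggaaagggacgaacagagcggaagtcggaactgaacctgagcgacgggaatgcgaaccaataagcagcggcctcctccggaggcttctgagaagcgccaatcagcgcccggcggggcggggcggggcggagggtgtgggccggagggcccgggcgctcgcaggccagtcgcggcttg

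The FOXO consensus GTAAACA was searched first, on both strands, and the related GTAAATA was added after the Mgat5 window had been seen. The match to GTAAATA there is therefore a description and not a test. The promoter table held 11 windows for 6 of the 8 genes, all but Man2a2 and Mgat4b. GTAAACA matched in no window of the 6 genes. GTAAATA matched 1 window, that of Mgat5, beginning 168 bases before the start. Across all 32851 windows of this length in the table, 3.65% held GTAAACA, 3.04% held GTAAATA and 6.54% held either on either strand. Other forms of the forkhead motif were not searched, and the match was not tested for binding.

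**Figure D1:**
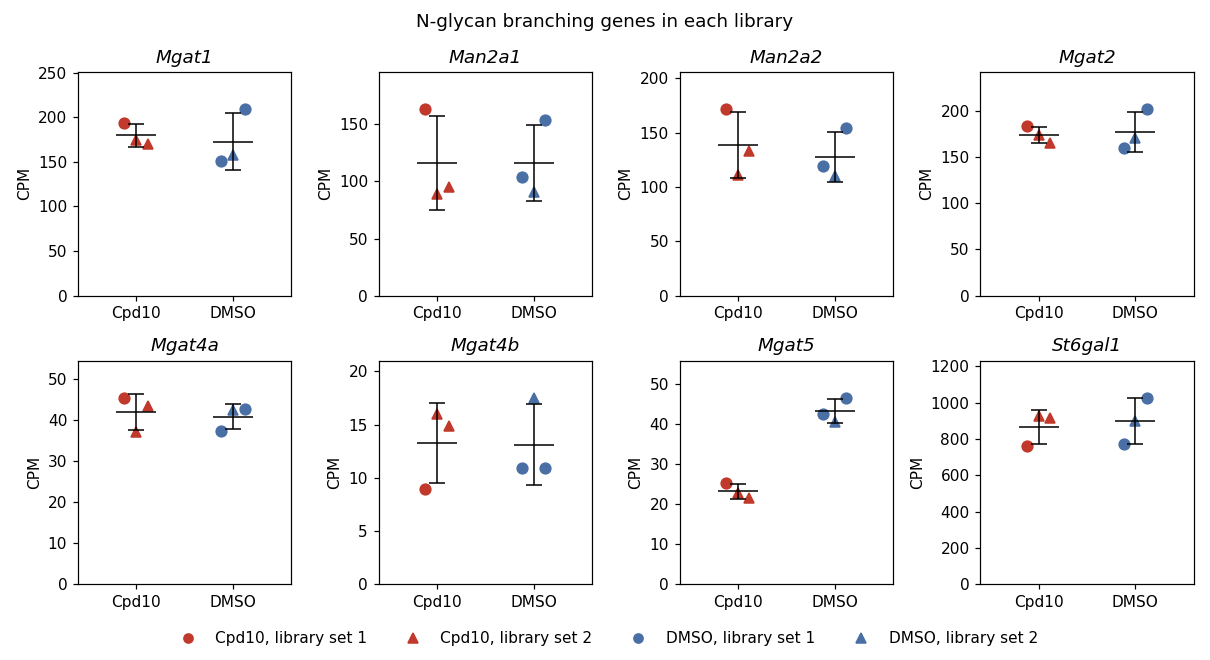
Level of each branching gene in CPM (y axis from 0) in Cpd10 (left) and DMSO (right) libraries; each point is 1 library, circles are library set 1 and triangles set 2, and the bar and whiskers are the mean and SD of 3. Mgat5 is the gene whose Cpd10 libraries, at 21.6 to 25.2 CPM, all lie below its DMSO libraries, at 40.5 to 46.4 CPM; in the other 7 panels the groups overlap.

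The GlcNAc-transferases that act before MGAT5 did not pass the test. Mgat1 (chromosome 11, 49244191 to 49263030) had 194, 175 and 170.0 CPM in Cpd10 A, B and C, against 151, 158 and 209 CPM in DMSO A, B and C. The DMSO libraries spanned all the Cpd10 values, and the log2 fold change was 0.056 (95% interval -0.27 to 0.38, edgeR adjusted p = 0.954). Mgat2 (chromosome 12, 69184157 to 69186770) had 183, 173 and 165 CPM in Cpd10, against 160.0, 169.9 and 201 CPM in DMSO libraries, with a log2 fold change of -0.028 (95% interval -0.29 to 0.23). The intervals of both exclude a decrease as large as that estimated for Mgat5.

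The mannosidase genes varied more between the library sets than between the treatments. Man2a1 (chromosome 17, 64600736 to 64755110) had 163, 89.2 and 95.3 CPM in Cpd10 A, B and C, against 104, 90.8 and 154 CPM in DMSO A, B and C. Its highest values were in Cpd10 A and DMSO C, both of set 1, and set 1 exceeded set 2 by 0.59 on the log2 scale, while the log2 fold change of Cpd10 against DMSO was -0.0036 (95% interval -0.68 to 0.67). Man2a2 (chromosome 7, 80349097 to 80371375) had 172, 111 and 134 CPM in Cpd10, against 119, 110 and 154 CPM in DMSO libraries. For Man2a2 the difference between sets was 0.32 on the log2 scale and the log2 fold change was 0.12 (edgeR adjusted p = 0.918), or 0.24 with the set as a term (95% interval -0.0096 to 0.49, edgeR adjusted p = 0.337).

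The paralogues Mgat4a and Mgat4b, whose enzymes add the same branch as each other, did not pass the test. Mgat4a (chromosome 1, 37439340 to 37541016) had 45.4, 37.1 and 43.4 CPM in Cpd10 A, B and C, against 37.2, 42.4 and 42.6 CPM in DMSO A, B and C. The groups overlapped almost fully, with a log2 fold change of 0.043 (95% interval -0.24 to 0.32, edgeR adjusted p = 0.958). Mgat4b (chromosome 11, 50210890 to 50235103) was the lowest of the 8 in counts, at 8.97, 16 and 14.9 CPM in Cpd10, against 10.9, 17.5 and 10.97 CPM in DMSO libraries. Its 3 set 1 libraries were all below its 3 set 2 libraries, by 0.65 on the log2 scale, opposite in direction to Man2a1. Its log2 fold change was 0.018 without the set and -0.23 with it (edgeR adjusted p = 0.993 and 0.511). The 95% interval was -0.64 to 0.67 without the set and -0.56 to 0.092 with it, and changes inside each interval were not excluded by that fit.

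St6gal1 (chromosome 16, 23224740 to 23360350), the capping enzyme, was the most abundant member. It had 759.6, 926 and 915 CPM in Cpd10 A, B and C, against 772, 901 and 1027 CPM in DMSO A, B and C, and a log2 fold change of -0.054 (95% interval -0.41 to 0.30, edgeR adjusted p = 0.958). Cd22, the gene of the lectin that binds its product, averaged 530.2 ± 92.9 CPM in Cpd10 and 589.7 ± 90.6 CPM in DMSO (SD, n = 3 each; edgeR adjusted p = 0.892).

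**Figure D2:**
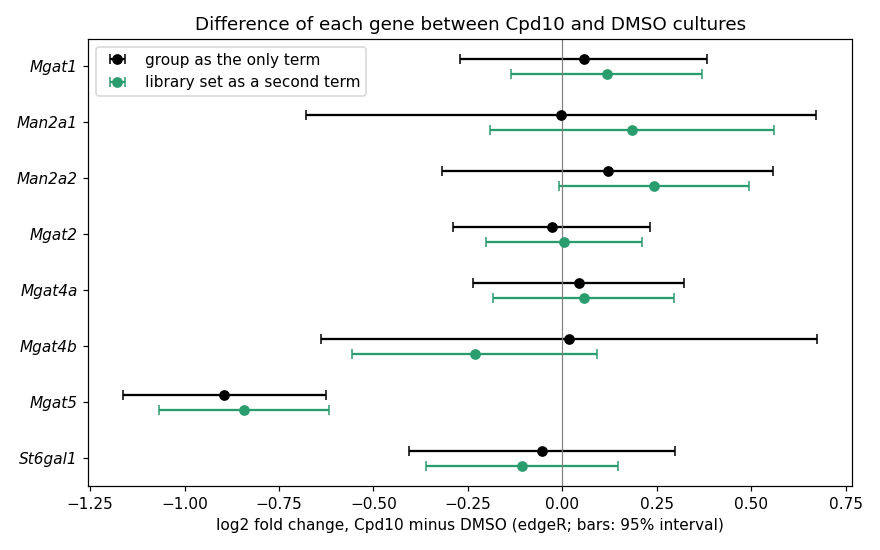
Log2 fold change of Cpd10 minus DMSO for each branching gene, with 95% intervals, from edgeR with the group as the only term (black) and with the library set as a second term (green). Mgat5 lies at -0.89 and -0.84, and the intervals of the other 7 genes span 0 in both fits.

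Among the 8 genes, edgeR called 0 higher and 1 lower (Mgat5). The fit called 0.37% of all 15136 tested genes, 0.317% as higher and 0.0529% as lower, and since Mgat5 was chosen from this comparison nothing is read from its count. The other 7 had log2 fold changes of -0.054 to 0.12 with a median of 0.018, 4 above 0 and 3 below, beside a median of -0.0012 over all tested genes. None of these 7 passed edgeR's test, none had an unadjusted p under 0.05, and DESeq2 and limma-voom called none of them either. Each of the 7 changed sign when 1 library or another was left out, within -0.33 (Man2a1 without Cpd10 A) to 0.28 (Mgat4b without DMSO B, Man2a2 without DMSO C). Groups without overlap were found for 1 of the 8 genes, lower in Cpd10, against 14.6% of all tested genes (7.31% higher and 7.32% lower).

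Levels of different genes can be compared only per length, here as CPM per kb of merged exons. In Cpd10 libraries the order was St6gal1 (176 ± 18.9 CPM per kb), Mgat2 (66.5 ± 3.43), Mgat1 (37.9 ± 2.7), Man2a1 (16.1 ± 5.70), Man2a2 (13.5 ± 2.95), Mgat4b (4.89 ± 1.39), Mgat4a (3.26 ± 0.334) and Mgat5 (2.25 ± 0.178 CPM per kb; SD, n = 3 for each). In DMSO libraries the values ran in the order St6gal1 (183 ± 25.9 CPM per kb), Mgat2 (67.8 ± 8.28), Mgat1 (36.5 ± 6.70), Man2a1 (16.1 ± 4.63), Man2a2 (12.4 ± 2.26), Mgat4b (4.83 ± 1.39), Mgat5 (4.19 ± 0.294) and Mgat4a (3.16 ± 0.237 CPM per kb). The first GlcNAc-transferases, Mgat1 and Mgat2, were thus far above the enzymes of the later branches in both groups. Man2a1 and Man2a2 overlapped in both groups, as did Mgat4b with Mgat4a in Cpd10 and Mgat4b with Mgat5 in DMSO. Mgat5 at 2.10 to 2.45 CPM per kb was below Mgat4a at 2.88 to 3.52 CPM per kb in Cpd10 libraries, and at 3.93 to 4.51 was above it at 2.89 to 3.31 CPM per kb in DMSO libraries. With the longest transcript as the length, Mgat5 was lowest in DMSO libraries as well, at 4.8 to 5.50 CPM per kb, overlapping Mgat4a at 5.13 to 5.87, so that the order of these 2 genes in DMSO depends on the length used. That length also put Man2a2 above Man2a1 (21.2 against 16.6 CPM per kb in Cpd10, 19.5 against 16.6 in DMSO) and Mgat4a above Mgat4b (5.79 against 5.47 in Cpd10, 5.62 against 5.40 in DMSO).

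Ratios within a library do not depend on its size. The level per length of Mgat5 relative to Mgat2 was 0.0350, 0.0334 and 0.0333 in Cpd10 A, B and C, against 0.0674, 0.0605 and 0.0585 in DMSO A, B and C. Of the summed level per length of the 5 GlcNAc-transferases, Mgat5 made up 2.04%, 1.94% and 1.91% in the Cpd10 libraries, against 3.96%, 3.51% and 3.39% in the DMSO libraries. These shares repeat the difference in Mgat5 itself and add no test. The ratio of Mgat4a to Mgat2 was 0.0503, 0.0435 and 0.0534 in Cpd10, against 0.0472, 0.0506 and 0.0429 in DMSO libraries, with overlapping groups.

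**Figure D3:**
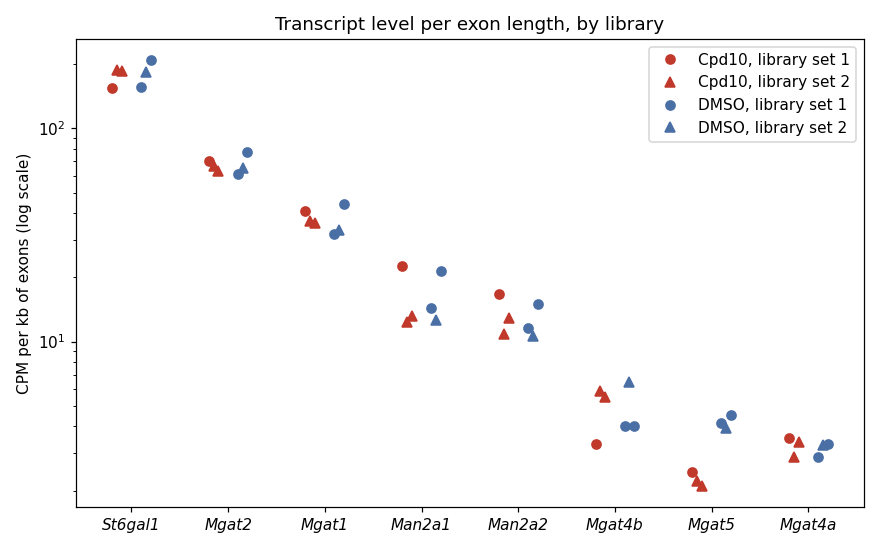
Level of each branching gene as CPM per kb of merged exons (log scale) in each library, Cpd10 left of DMSO for each gene, circles for library set 1 and triangles for set 2. St6gal1 is highest, at 155 to 188 in Cpd10 and 157 to 209 in DMSO, and Mgat5 lies below Mgat4a in Cpd10 and above it in DMSO.

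The rest of the N-glycan pathway was read from 10 lists of 103 genes, of which 91 were tested. EdgeR called 0 of these 91, with 10 at an unadjusted p under 0.05 (5 higher and 5 lower), beside 8.39% of all tested genes. DESeq2 called 2, both lower, Fut8 and St3gal6, beside 2% of all genes it tested (1.15% higher and 0.849% lower), and limma-voom called 0. EdgeR with the set as a further term called 2, both lower, Fut8 and Cd44, beside 3.96% of all genes (2.32% higher and 1.64% lower). The median log2 fold change of the 91 was -0.037, and -0.014 with the set as a term. Groups did not overlap for 6 of the 91 as higher and 9 as lower in Cpd10, beside 7.31% and 7.32% of all tested genes. These shares of all tested genes, with 8.39% at an unadjusted p under 0.05, also stand beside the counts per list below.

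Fut8, which adds the core fucose to the base of N-glycans, stood nearest to a call. It had 32.8, 33.0 and 28.4 CPM in Cpd10 A, B and C, against 59.0, 41.0 and 59.4 CPM in DMSO A, B and C. All Cpd10 libraries lay below all DMSO libraries, with DMSO B, the DMSO library of set 2, nearest to them. Its log2 fold change was -0.76 (SE 0.16, edgeR adjusted p = 0.146), and -0.64 with the set as a term (edgeR adjusted p = 0.00955), while DESeq2 gave an adjusted p of 0.00890. Without DMSO B edgeR called it (-0.91, adjusted p = 0.0327), in a fit in which all DMSO libraries are of set 1.

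Among 10 tested genes of sialic acid capping (12 listed), edgeR called 0. At an unadjusted p under 0.05, 3 were higher (St3gal3, Cmas and Slc35a1) and 1 lower (St3gal6), beside 8.39% of all tested genes. St3gal6, a sialyltransferase that makes another linkage than ST6GAL1, had 59.4, 82.9 and 81.8 CPM in Cpd10 A, B and C, against 146, 113 and 107 CPM in DMSO A, B and C. Its groups did not overlap, and its log2 fold change was -0.71 (SE 0.17; edgeR adjusted p = 0.211, and 0.0203 by DESeq2). The paralogue St3gal3 had 18.5, 23.3 and 22.5 CPM in Cpd10, against 14.2, 16.6 and 12.9 CPM in DMSO libraries, a log2 fold change of 0.56 in the opposite direction (edgeR adjusted p = 0.325). Cmas, which activates sialic acid for transfer, stood at 0.34 on the log2 fold scale (edgeR adjusted p = 0.456). Groups did not overlap for 3 of the 10 as higher (St3gal3, Cmas and Slc35a1) and 1 as lower (St3gal6), beside 7.31% and 7.32% of all tested genes.

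Of 8 tested genes of galactosylation and LacNAc extension (10 listed), edgeR and DESeq2 called 0, and 1 had an unadjusted p under 0.05. That gene was B3gnt2, the main enzyme of poly-LacNAc extension, at 4.25, 5.71 and 5.48 CPM in Cpd10 A, B and C, against 8.13, 7.68 and 7.27 CPM in DMSO A, B and C. The groups did not overlap, and the log2 fold change was -0.58 (SE 0.21, edgeR adjusted p = 0.501). The galactosyltransferase genes B4galt5 and B4galt2 stood at -0.30 and 0.61 on the log2 fold scale, with adjusted p of 0.612 and 0.782 in edgeR. B4galt5 was at -0.14 without DMSO A, and B4galt2 at 0.25 without Cpd10 B, 0.41 without DMSO C and 0.32 with the set as a term. B4galt1, the most abundant galactosyltransferase of the list in counts, averaged 743 ± 61.7 CPM in Cpd10 and 757 ± 103 CPM in DMSO (SD, n = 3 each).

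No step before branching held a called gene. Of 20 genes of precursor assembly, 12 of the oligosaccharyltransferase and 8 of early trimming, all tested, edgeR and DESeq2 called 0, and 0 had an unadjusted p under 0.05. Their median log2 fold changes were -0.034, -0.069 and -0.10, and no gene of these 3 lists went beyond 0.36 in either direction. In precursor assembly the smallest p belonged to the mannosyltransferases Alg2 and Alg9 and to Srd5a3, which makes dolichol, with log2 fold changes of -0.27, -0.21 and -0.36. In the oligosaccharyltransferase they belonged to Stt3b, Ostc and Stt3a, at -0.26, -0.18 and -0.19. In early trimming they belonged to Prkcsh and Ganab, the subunits of glucosidase II, at -0.17 and -0.14, and to the folding sensor Uggt1, at -0.16. Over the fits that leave out 1 library, 7 of these 9 genes moved by over 1.5 times, with the values nearest 0 at -0.17 for Alg2, -0.071 for Alg9, -0.16 for Srd5a3, -0.083 for Ostc, -0.090 for Stt3a, -0.051 for Ganab and -0.047 for Uggt1. These were without DMSO C, except for Alg9 (without DMSO A) and Srd5a3 (without Cpd10 C), which was at -0.66 without Cpd10 A. Stt3a and Stt3b, the catalytic subunits that transfer the glycan to protein, were at 313 to 353 and 319 to 350.4 CPM in Cpd10, against 338 to 422 and 339 to 441 CPM in DMSO libraries.

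Genes that supply UDP-GlcNAc, the donor for every branch, numbered 11, all tested, with 0 called by edgeR and DESeq2 and 2 at an unadjusted p under 0.05. Uap1, which makes UDP-GlcNAc, had 50.5, 47.6 and 44.2 CPM in Cpd10 A, B and C, against 56.5, 56.5 and 58.3 CPM in DMSO A, B and C (log2 fold change -0.27, edgeR adjusted p = 0.50). Gfpt2 was under 1 CPM in every library, so its log2 fold change of 2.08 rests on few counts (edgeR adjusted p = 0.574; 3.25 without DMSO C). Gfpt1, which like Gfpt2 encodes the first enzyme of the hexosamine pathway, averaged 143 ± 19.3 CPM in Cpd10 and 149 ± 15.8 CPM in DMSO (SD, n = 3 each), and Slc35a2, a UDP-galactose transporter, stood at 0.22 on the log2 fold scale (edgeR adjusted p = 0.727; 0.12 without DMSO A).

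Of the 8 fucosylation genes, Fut8 among them, 7 were tested and edgeR called 0, with 2 at an unadjusted p under 0.05. Tsta3, which makes GDP-fucose, and Fut4, a fucosyltransferase of outer branches, stood at 0.31 and 0.38 on the log2 fold scale, with adjusted p of 0.529 and 0.825 in edgeR. Fut4 was at 0.19 without DMSO A and 0.77 without DMSO B. Of 5 further GlcNAc-transferase genes none was tested. Mgat4c, Mgat4d and Mgat5b had 0 counts in all 6 libraries, Mgat4e had 2 counts in Cpd10 C and 0 elsewhere, and Mgat3, whose enzyme adds the bisecting GlcNAc, had at most 14 counts in any library. Mgat5b is the paralogue of Mgat5 and thus had no count in either group.

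Among proteins that bind or carry these glycans, 6 of 8 galectin genes were tested, and edgeR and DESeq2 called 0, with 0 at an unadjusted p under 0.05. Lgals3bp, a ligand of galectins, and the galectins Lgals1 and Lgals4 stood at -0.73, 0.32 and -0.20 on the log2 fold scale, with adjusted p of 0.714, 0.736 and 0.906 in edgeR. Lgals3bp had 2.71, 7.43 and 8.52 CPM in Cpd10 A, B and C, against 10.1, 10.8 and 10.02 CPM in DMSO A, B and C, and was at -0.36 without Cpd10 A and -1.14 with the set as a term. Lgals1 was at 0.16 without DMSO A and 0.49 without DMSO B, and Lgals4 at -0.40 without DMSO A, -0.13 without DMSO B, -0.13 without Cpd10 B and -0.040 without DMSO C. Of 9 B cell lectins and glycoprotein carriers edgeR called 0, with 1 at an unadjusted p under 0.05. That was Cd44, the hyaluronan receptor, at 545, 744 and 722 CPM in Cpd10 A, B and C, against 1123, 981 and 847 CPM in DMSO A, B and C (log2 fold change -0.55; edgeR adjusted p = 0.372, and 0.0338 with the set as a term). Ptprc, the gene of the heavily glycosylated phosphatase CD45, had -0.22 and Siglecg, a sialic acid lectin, -0.68 (edgeR adjusted p = 0.678 and 0.784). Siglecg was at -0.29 without DMSO C, -1.02 without Cpd10 A and -0.23 with the set as a term.

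**Figure D4:**
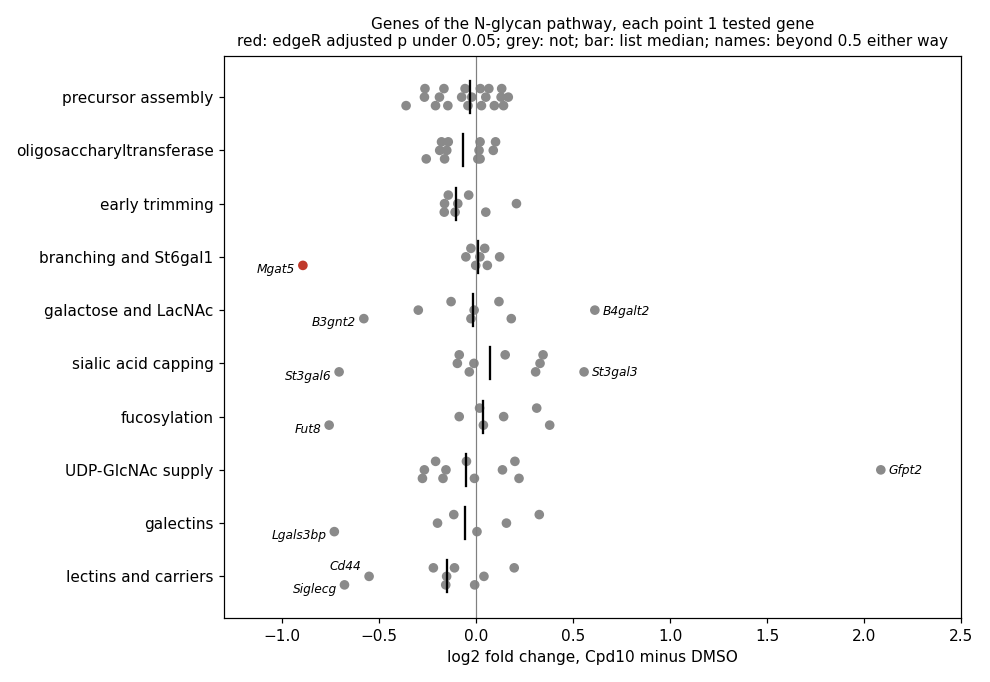
Log2 fold change of Cpd10 minus DMSO for each tested gene of the N-glycan pathway, 1 row per step; red marks an edgeR adjusted p under 0.05, bars are row medians, and genes beyond 0.5 in either direction are named. Mgat5 at -0.89 is the only red point, followed on the low side by Fut8 at -0.76, Lgals3bp at -0.73 and St3gal6 at -0.71.

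Profiles over the 6 libraries were compared by the root mean square difference of log2 CPM after subtracting each gene's mean. The 8492 genes ranked had a mean of at least 10 CPM. Genes with clone names, Gm names or immunoglobulin names were left out. The genes nearest to Mgat5 were Lck, a SRC family kinase best known from T cells (0.074 on the log2 scale), Itga6, an integrin chain (0.13), H2-Eb2, an MHC class II chain (0.13), Chst3, a sulfotransferase of chondroitin (0.14), and Lmo4, a LIM domain protein (0.14). The median gene differed from Mgat5 by 0.48. Fut8 came ninth, at 0.16, and St3gal6 was at rank 186, at 0.29, while the other 7 branching genes lay between 0.44 and 0.62, ranks 2680 to 7447. Likeness here is over 6 libraries that share their sets and treatment. Mgat5 was itself picked for its lower level in Cpd10, so the direction its nearest genes share follows from the choice and adds no test.

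**Figure D5:**
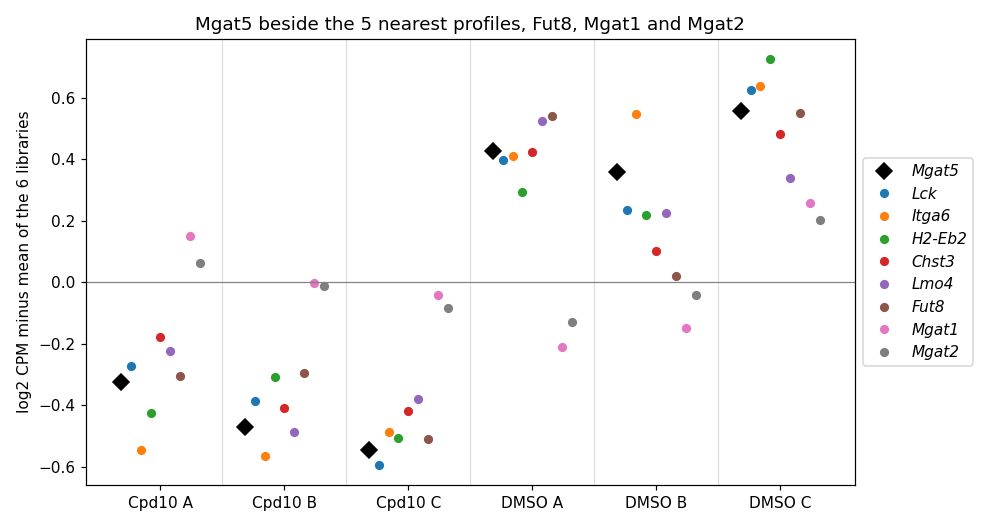
Log2 CPM of Mgat5 (black diamonds), its 5 nearest genes, Fut8, Mgat1 and Mgat2 in each library, after subtracting each gene's mean over the 6. Mgat5, its nearest genes and Fut8 are below 0 in the 3 Cpd10 libraries and above 0 in the 3 DMSO libraries, and Mgat1 and Mgat2 are not. The 5 nearest genes were chosen for likeness to Mgat5 over these libraries, so their shared direction adds no test.

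Markers of other cells were measured beside these genes. Of 9 T cell markers, 6 were under 1 CPM in every library (Cd3d, Cd3e, Cd3g, Cd4, Cd8a and Trbc2). The summed list was at 22.3 to 27.4 CPM in Cpd10 and 39.8 to 51.7 CPM in DMSO. Most of that sum was Lck, at 23.8 ± 2.65 CPM in Cpd10 and 42.7 ± 5.89 CPM in DMSO (SD, n = 3 each). Of 12 myeloid markers, 9 were under 1 CPM throughout, among them Lyz2, Csf1r, Cd14 and Fcgr1 (S100a8 and S100a9 at 0). The 12 summed to 12.9 to 39.6 CPM in Cpd10 and 34.7 to 58.8 CPM in DMSO. Of 7 stromal and endothelial markers, 4 were under 1 CPM throughout, the endothelial Kdr among them (Col3a1 at 0). The 7 summed to 4.93 to 10.1 CPM in Cpd10 and 11.9 to 20.7 CPM in DMSO. The 6 plasma cell markers summed to 2155 to 3087 CPM in Cpd10 and 2018 to 4361 CPM in DMSO, highest in DMSO C. EdgeR called none of the tested markers of these lists with the group as the only term. With the set as a term it called Lck, Adgre1, a macrophage gene, and Pecam1, of the stromal and endothelial list, as lower. Their log2 fold changes were -0.76, -0.80 and -1.43 (edgeR adjusted p = 0.00216, 0.0252 and 0.0356). Cdh5 and Pdgfrb, the other tested genes of the list that holds Pecam1, were not called. Irf4 was called as higher (0.49, edgeR adjusted p = 0.0131). The other plasma cell markers were not called in that fit and went both ways. Sdc1, Prdm1 and Jchain were at -0.67, -0.61 and -0.84 on the log2 fold scale, and Xbp1 and Tnfrsf17 at 0.20 and 0.43. DESeq2 called Lck and Pecam1 as lower (adjusted p = 0.000699 and 0.000301). In bulk libraries, fewer cells of a type and less RNA per cell cannot be told apart, and the part of these lists in the level of Mgat5 was not tested.

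Genes on the opposite strand share some exon sequence with 5 members. The partner of Mgat5, Tmem163, shares 152 bases and had 12, 18 and 0 counts in Cpd10 A, B and C, against 26, 16 and 69 counts in DMSO A, B and C, while Mgat5 had 1144, 898 and 812 counts in Cpd10, against 1898, 1470 and 1908 in DMSO libraries. Hddc3 shares 427 bases with Man2a2 and had 138 to 192 counts in Cpd10 and 153 to 174 counts in DMSO libraries. The partners of Mgat2, Man2a1 and St6gal1 had at most 91 counts in any library.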

How the data were processed

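The deposited values are 1 table of raw counts, genes by 6 libraries, not normalised by the authors. Tools listed in the submitters' processing notes are STAR 2.7.10a, featureCounts 2.0.6 and DESeq2, with GRCm38 (mm10); per the labels' protocols, libraries were poly A selected and directional. The strand setting of the counting is not stated there. Of 54838 identifiers, 54809 matched GENCODE M21.

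From these counts, edgeR 4.0.16 (R 4.3.3) was run with TMM normalisation, filterByExpr (15136 genes tested), a robust quasi-likelihood fit and the group as the only term. Calls are Benjamini-Hochberg adjusted p under 0.05 over all tested genes. Log2 fold changes are Cpd10 minus DMSO, and the SE is the log2 fold change divided by the root of F. Alternatives were DESeq2 1.42.0, limma-voom (limma 3.58.1), RLE size factors, no filter, each library left out and a replicate block. The library set, taken as the split of 3 against 3 with most genes at 3 counts or fewer on 1 side and 50 or more on the other (9 genes, against 1 for the next split), was added after seeing the data, so its p-values are exploratory. Replicates differed beyond sampling noise (chi-square per degree of freedom 12.3 to 176).

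The 8 genes, the lists and the rules were chosen with earlier results of these data known. Named are the 8 genes, up to 3 tested genes with the smallest p per list, and the 5 nearest profiles. B4galt1, Gfpt1, Cd22, Slc35a1, the untested GlcNAc-transferases and the markers are named outside this rule. Promoter sequences are RefSeq's (GRCm38.p6). A gene of the marker and carrier lists is not reported here and was left out of their counts and sums.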

Additional observations from a re-analysis of the deposited data

How the results depend on the processing

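Mgat5 stayed lower in Cpd10 in each of the 12 alternatives, with log2 fold changes of -0.95 to -0.83 over the fits that leave out 1 library. It was called in 2 of those 6 fits and in the fits with RLE size factors, without the filter, with limma-voom, with DESeq2 and with the library set. The number of the 8 genes called was 0 to 1 when 1 library was left out and 0 with the replicate block (Mgat5 -0.89), against 1. Same-letter deviations from the group means correlated at 0.31, 0.43 and -0.31 for A, B and C, and of the Cpd10 libraries only B matched its own letter best. The 2 libraries of A share a set, as do those of B, while those of C do not. Cpd10 A correlated best with DMSO C (0.46) and Cpd10 C with DMSO B (0.41), each of its own set and of another letter. Pairing by letter was not tested apart from the library set. Whether the letters pair the libraries stays unknown, and the blocked fit (49 genes called) is given beside the main fit. Over all genes, edgeR called 56, against 194 without the filter, 356 by DESeq2, 599 with the library set and 0 to 100 with 1 library left out (0 without Cpd10 C, 843 at an unadjusted p under 0.05). Of the pathway lists, edgeR called 0 genes, against 2 with DESeq2, 2 with the library set, 1 without the filter (Fut8) and 0 to 1 with 1 library left out. Mgat5 was the seventh of 8 genes per length in DMSO (rank 7), and rank 8 with the longest transcript as the length. The cause of these changes was not tested.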
